A study of Mus musculus with 6 samples.

Results

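Monocytes and dendritic cells (DC) share the blood with neutrophils, and 32 genes known from them were followed here in sorted peripheral blood (PB) neutrophils: 19 monocyte genes, 9 genes of conventional DC and 4 of plasmacytoid DC. The genes were picked by name as transcripts of myeloid cells other than neutrophils, out of 29097 genes in the deposited table. The mice were C57BL/6 animals of 8 weeks. In the LIP group, silk ligatures around the molars had caused periodontitis for 14 d, and the Ctrl group was left without a ligature for as long. CD45+CD11b+Ly6G+ cells were sorted, and each group has 3 Smart-seq2 libraries, every one from cells pooled over 5 mice. The labels call the LIP libraries Lig, and they name no genotype or agent beyond the ligature. The sort was gated on Ly6G, a surface protein of neutrophils, while CD11b is also carried by monocytes and by some DC.

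Monocytes leave the bone marrow as classical cells, which enter inflamed tissue and become macrophages, or mature into patrolling cells that scan the vessel wall. Conventional DC take up antigen and show it to T cells, and they depend on the growth factor receptor Flt3. Among their factors are Id2 and, in cross-presenting DC, Batf3. Plasmacytoid DC are the main interferon producers of the blood, and their identity rests on the factor Tcf4. Many of these genes are not private to a cell type: Cd14, Cd68, Lgals3 and Bst1 are also made by neutrophils, F13a1 by platelets, Ms4a6b by T cells and Tcf4 by B cells.

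Of the 32 genes, 20 rose in the LIP libraries, 2 fell, 1 did not pass the test and 9 were too low to be tested. Of all genes tested, 26.5% were called higher and 27.2% lower. The rise took in nearly every monocyte gene, led by Tgfbi, Emilin2, Klra2, Lgals3 and Cd14. It also took in the 4 conventional DC genes that could be tested, of which Clec10a and Batf3 passed the filter only through their LIP libraries. The 2 genes that fell were Ms4a6b, a monocyte gene by its list, and Tcf4. The genes that define conventional DC most narrowly, Zbtb46, Xcr1 and Clec9a, held few reads in every library. These directions are relative to the bulk of genes, and on a scale set by mature neutrophil genes none of the 20 stayed significantly higher, as was so for nearly all genes (0.469% of the genes tested were called higher there and 88.6% lower).

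The total of reads counted on genes lay between 52186555 and 57262379 per library. Levels are given as TMM-scaled FPKM. These are the deposited fragment counts normalized to gene length and library total (FPKM), divided by a factor per library that centres most genes. Between genes they compare only roughly, because they depend on the counted length, such as 29710 bases for Tcf4 and 3590 for Bst1. The factors lay between 1.102 and 1.135 in Ctrl and between 0.889 and 0.905 in LIP libraries. Fold changes are log2 values of LIP over Ctrl from edgeR's quasi-likelihood test on the read counts, with their standard error (SE) and an adjusted p by the Benjamini-Hochberg method, and a gene is called at an adjusted p under 0.05. The 10440 genes with a mean deposited FPKM of at least 1 were tested. The Ctrl libraries differed by transcript length, replicate 2 with a median deviation from the group mean of −0.123 (log2) over genes longer than 6340 bases and of 0.121 over genes shorter than 1989 bases, and replicate 1 the other way, with 0.1 and −0.094. Markers of the labelled cell type were abundant: all 16 mature neutrophil genes were well above the filter in each group, with S100a9 at 5563 to 7058 in Ctrl and 25900 to 27350 in LIP libraries and Ly6g, the gene of the sort marker, at 16.3 to 17.7 and 42.5 to 53.7. In Ctrl libraries the red cell genes summed to 159200 to 168900, above the 14760 to 18470 of the neutrophil genes. The 8 B cell genes summed to 2899 to 3256 in Ctrl and 546.1 to 619.4 in LIP libraries. The B cell gene Cd79a was at 984.5 to 1135 in Ctrl libraries, above Ly6g and below S100a9.

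The promoters of the 3 monocyte genes with the largest rise are shown because a reader can see in them whether motifs of myeloid or interferon factors lie close to the start of genes that moved together. They are taken from RefSeq (GRCm38.p6), hold up to 250 bases before the annotated start, and were cut where the gene's own annotated span begins. Tgfbi lies on the + strand, its window at chr13:56609336-56609522. Emilin2 lies on the − strand, the window shown at chr17:71311557-71311806. Its other window, at chr17:71311012-71311261, held none of the motifs searched and is not shown. Klra2 also lies on the − strand, at chr6:131247363-131247612. Capitals mark the interferon response element core in Tgfbi and Emilin2 and a C/EBP-type match in Klra2.
Tgfbi: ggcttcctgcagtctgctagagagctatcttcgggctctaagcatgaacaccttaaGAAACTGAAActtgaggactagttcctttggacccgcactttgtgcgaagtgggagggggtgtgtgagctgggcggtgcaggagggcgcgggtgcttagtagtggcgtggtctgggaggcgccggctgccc
Emilin2: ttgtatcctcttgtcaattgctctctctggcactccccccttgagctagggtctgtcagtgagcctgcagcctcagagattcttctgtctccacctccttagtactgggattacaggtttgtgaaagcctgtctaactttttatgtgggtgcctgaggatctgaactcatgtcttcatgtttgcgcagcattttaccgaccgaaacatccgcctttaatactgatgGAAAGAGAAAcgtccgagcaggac
Klra2: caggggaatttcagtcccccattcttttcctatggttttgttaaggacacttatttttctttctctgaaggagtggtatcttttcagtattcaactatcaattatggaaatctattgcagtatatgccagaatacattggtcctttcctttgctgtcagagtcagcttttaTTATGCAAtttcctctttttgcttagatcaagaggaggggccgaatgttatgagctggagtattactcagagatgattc

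Promoters were found for 24 of the 32 genes, in 29 windows, and searched on both strands. The interferon response element core, GAAA and GAAA with any 2 bases between, occurred before Tgfbi and Emilin2 and before no other of the 24 genes. That was 2 of the 29 windows, beside 2.98% of all 32851 RefSeq promoter windows. The C/EBP-type motif TTGCNNAA occurred before 5 genes, Adgre4, Cd68, Ear2, Klra2 and Siglech, in 5 of the 29 windows and in 9.56% of all windows. The PU.1-type motif GAGGAAGT was in 0 of the 29 windows and in 2.44% of all windows. The 3 motifs do not overlap in the windows shown. The matches are letters in a window and say nothing of binding.

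**Figure D1:**
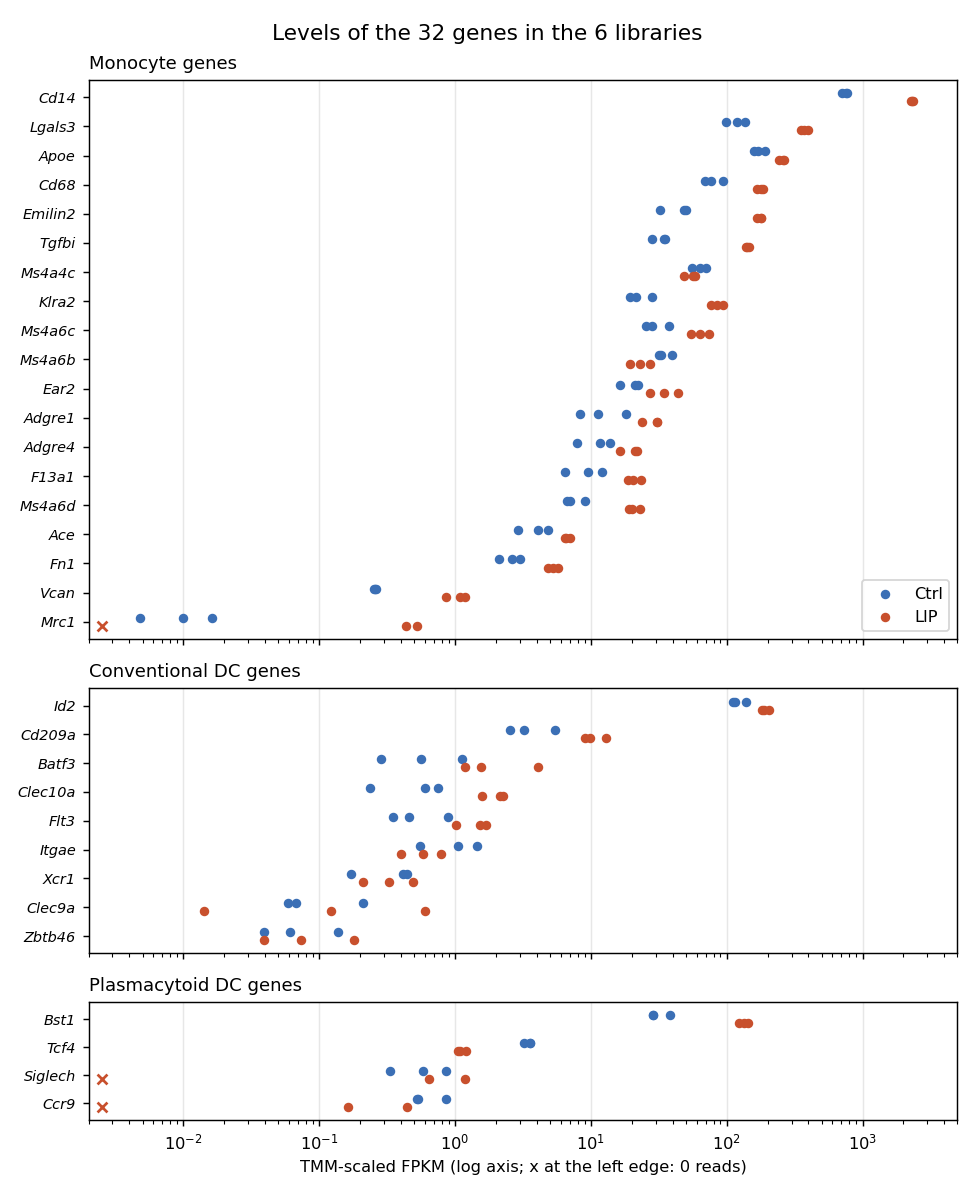
Level of each of the 32 genes in each of the 6 libraries, as TMM-scaled FPKM on a log axis. Points are single libraries (blue Ctrl, red LIP) and crosses at the left edge mark libraries with 0 reads. LIP libraries lie to the right of all Ctrl libraries for most monocyte genes, on the TMM scale. Most conventional DC genes sit near or below 1, and Tcf4 and Bst1 move in opposite directions.

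Among the 23 genes tested, 20 were called higher and 2 lower, where 26.5% of all 10440 genes tested were called higher and 27.2% lower. In the same 20 genes every LIP library lay above every Ctrl library, which held for 30.6% of all genes, and in the 2 lower genes every LIP library lay below, which held for 32.8%. The 23 genes had a median log2 fold change of 1.14, against −0.10 for the 10440. Clec10a and Batf3 had a Ctrl mean under 1 and passed the filter through their LIP libraries, so they could enter the test only by being higher there. Because members and lists were chosen with earlier results known, the counts describe these genes and are no test of them as a group. In bulk libraries, fewer cells of a type and less RNA per cell cannot be told apart.

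Levels in the monocyte genes were dominated by Cd14, the co-receptor for bacterial lipopolysaccharide. It stood at 769, 706 and 751 in the Ctrl libraries and at 2334, 2331 and 2266 in the LIP libraries. Each LIP library held about the same level, far above the Ctrl libraries, and the log2 fold change was 1.63 (SE 0.0678, adjusted p = 8.5e-08). Lgals3, which encodes the sugar-binding protein galectin-3, was at 99.6, 137 and 119 in Ctrl and at 353, 394 and 370 in LIP libraries. The groups were well apart, and Lgals3 rose by 1.64 on the log2 scale (SE 0.122, adjusted p = 2.08e-06). Cd68, a glycoprotein of lysosomes, measured 69.6, 93.7 and 77.0 in Ctrl against 186, 177 and 166 in LIP libraries, a log2 change of 1.13 (SE 0.129, adjusted p = 4.34e-05). The macrophage mannose receptor Mrc1 was the exception in this group of phagocyte proteins. It held 2, 7 and 4 reads in Ctrl libraries and 0, 182 and 144 reads in LIP libraries. The gene was below the filter, and its LIP reads came from replicates 2 and 3 alone, as 0 reads in LIP replicate 1 allow up to 3 reads at this depth.

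The 4 genes for matrix and clotting proteins that could be tested all rose, beside 26.5% of all genes, with log2 fold changes from 1.03 to 2.12. Tgfbi, a secreted matrix protein induced by TGF-β, was at 34.8, 28.0 and 34.3 in Ctrl and at 138, 146 and 141 in LIP libraries, and it rose by 2.12 (log2; SE 0.111, adjusted p = 2.81e-07). Emilin2, an elastin-associated glycoprotein, was at 49.9, 32.2 and 48.9 in Ctrl and at 180, 180 and 167 in LIP libraries, with a log2 change of 1.99 (SE 0.154, adjusted p = 2.59e-06). For both genes the LIP libraries were tightly grouped and the lowest Ctrl value was that of replicate 2. F13a1, the A subunit of clotting factor XIII, rose by 1.14 (log2; SE 0.204, adjusted p = 0.000916) from a Ctrl range of 6.41 to 12.2 to 18.9 to 23.4. Platelet genes moved with it: all 6 rose, and their summed level ran from 662.6 to 914 in Ctrl and from 1813 to 2081 in LIP libraries. The part of platelet RNA in F13a1 was not tested. Fibronectin (Fn1) rose by 1.03 (log2; SE 0.164, adjusted p = 0.000437), from 2.09 to 3.01 in Ctrl to 4.87 to 5.76 in LIP libraries. Vcan, the matrix proteoglycan versican, has a counted length of 15715 bases and was below the FPKM filter, although it held 244, 246 and 232 reads in Ctrl and 669, 939 and 801 in LIP libraries. With no filter its log2 fold change was 2.04 (adjusted p = 0.00065), near the values of Tgfbi and Emilin2.

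Klra2, a receptor of the Ly49 family, had a rise of similar size to those of Tgfbi and Emilin2. Its level was 28.1, 21.7 and 19.5 in Ctrl and 84.4, 94.2 and 76.7 in LIP libraries, and its log2 fold change was 1.87 (SE 0.156, adjusted p = 4.34e-06). The natural killer (NK) cell list, whose cells also carry Ly49 receptors, had 3 of 6 genes called higher and 0 lower. Of all genes tested, 26.5% were called higher and 27.2% lower. The summed level of the NK list was 411.6 to 499.7 in Ctrl and 442.1 to 492.9 in LIP libraries, so that the groups overlapped.

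**Figure D2:**
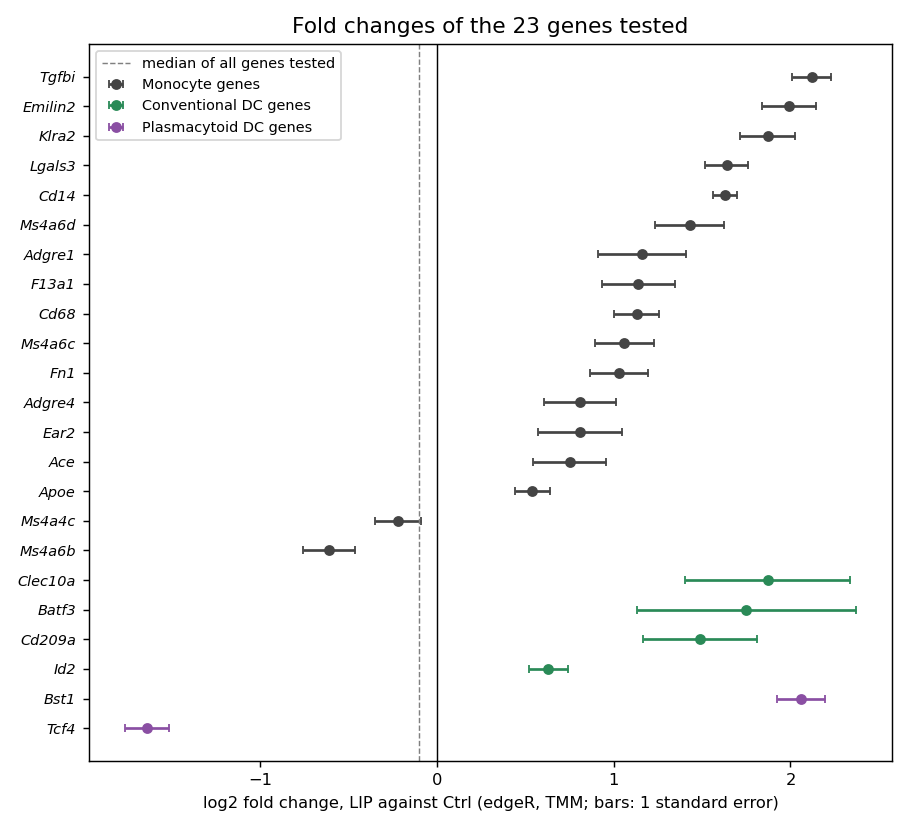
Log2 fold change of LIP over Ctrl for the 23 genes tested, with bars of 1 SE, on the TMM scale. The dashed line is the median of all genes tested (−0.10). Tgfbi (2.12) and Bst1 (2.06) lie farthest to the right, Tcf4 (−1.64) and Ms4a6b (−0.61) on the left, and the widest bars are those of Batf3 and Clec10a.

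The Ms4a genes split. These genes encode small proteins that span the membrane several times, and the 4 members followed here lie in a row on chromosome 19 (GRCm38), from Ms4a4c at chr19:11404770-11427246 over Ms4a6c at chr19:11469366-11482192 and Ms4a6b at chr19:11516512-11531256 to Ms4a6d at chr19:11586604-11604849. Ms4a6d rose by 1.43 (log2; SE 0.196, adjusted p = 0.000144), with 6.69 to 9.05 in Ctrl and 19.2 to 22.9 in LIP libraries. Ms4a6c was at 25.6, 37.5 and 28.2 in Ctrl and at 63.4, 73.8 and 54.7 in LIP libraries, a rise of 1.06 (log2; SE 0.167, adjusted p = 0.000401). Its neighbour Ms4a6b went the other way, from 31.9, 39.6 and 32.8 to 19.3, 27.0 and 22.9, a log2 change of −0.61 (SE 0.145, adjusted p = 0.00528). Ms4a4c was at 48.1 to 58.6 in LIP and 55.4 to 70.1 in Ctrl libraries, which overlapped, and it did not pass the test (log2 fold change −0.22, SE 0.131, adjusted p = 0.179). The ratio of Ms4a6c to Ms4a6b within a library, which no scaling of libraries can alter, was 0.801, 0.948 and 0.859 in Ctrl and 3.29, 2.73 and 2.39 in LIP libraries. This ratio was picked after the values had been seen.

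Other cell types moved with Ms4a6b as well. All 8 T cell genes fell, beside 27.2% of all genes tested, with a median log2 fold change of −2.50. Their summed level went from 126.4 to 152.1 in Ctrl to 28.57 to 38.33 in LIP libraries. Some of them, such as Cd8a with a LIP mean of 0.775, passed the filter through their Ctrl libraries. No T cell gene was at 0 in either group, and their part in the fall of Ms4a6b was not tested. Ms4a6c shares 10.5% of its 50-base stretches with other transcripts, Ms4a6b among them, and Ms4a4c shares 8.19% with Ms4a4b and Ms4a4d. Ms4a6c and Ms4a6b also overlap genes on the opposite strand, BE692007 and Gm19261, and without a statement that strand was used in counting their reads cannot be told apart.

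Adhesion receptors and genes of patrolling monocytes also rose. Adgre1, which encodes the macrophage antigen F4/80, rose by 1.16 (log2; SE 0.249, adjusted p = 0.00287), with 8.30 to 18.3 in Ctrl and 23.7 to 30.9 in LIP libraries. Its relative Adgre4 rose by 0.81 (SE 0.203, adjusted p = 0.00698), from 7.93 to 13.8 in Ctrl to 16.3 to 21.7, a call lost with library totals (adjusted p = 0.0703). In both genes Ctrl replicate 2 was the lowest library. Ear2, an RNase of the eosinophil-associated family that is also known from patrolling monocytes, had a log2 fold change of 0.81 (SE 0.238, adjusted p = 0.0153) and ran from 16.3 to 22.2 in Ctrl and from 27.1 to 44.1 in LIP libraries. Ear2 is uncertain, because 41.5% of its 50-base stretches recur in Ear1, Ear6, Ear10 or related pseudogenes, and its call was lost without Ctrl replicate 1 (adjusted p = 0.0528) or without LIP replicate 3 (adjusted p = 0.0682). Of 5 eosinophil and basophil genes tested, 1 was called higher and 0 lower, beside 26.5% and 27.2% of all genes. The summed level of the list was 8.966 to 11.96 in Ctrl and 12.86 to 19.18 in LIP libraries. Ace, the angiotensin-converting enzyme, rose by 0.75 (log2; SE 0.207, adjusted p = 0.0114), from 2.90 to 4.84 in Ctrl to 6.43 to 6.97 in LIP libraries, and this call was lost with library totals (adjusted p = 0.11) and in limma (adjusted p = 0.0976 with a pseudocount of 1).

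Apoe, the lipid carrier apolipoprotein E, had the smallest log2 fold change of the 15 monocyte genes that rose. It was at 160, 193 and 171 in Ctrl and at 243, 264 and 259 in LIP libraries. The groups did not overlap, and the log2 fold change was 0.54 (SE 0.0982, adjusted p = 0.00105).

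Summed over the 19 monocyte genes, the level was 1396 to 1418 in Ctrl and 3711 to 3884 in LIP libraries. Cd14 supplied more than any other gene, and leaving it out gave sums of 627.6 to 711.7 for Ctrl and 1445 to 1553 for LIP. Of the 17 monocyte genes tested, 15 rose, 1 fell and 1 did not pass the test on the TMM scale, beside 26.5% and 27.2% of all genes. Their median log2 fold change was 1.13 on that scale. On the neutrophil gene scale, in contrast, 0 of them rose and 12 fell. The count of 12 among 17 is below the share of all genes that fell on the neutrophil gene scale (88.6%). Mature neutrophil genes had risen more by the median: all 16 were called higher, with a median of 1.84 and values from 0.39 to 2.51. Their summed level was 14760 to 18470 in Ctrl and 60590 to 67040 in LIP libraries. Most of it was S100a8 and S100a9, with means of 6260 and 6362 of 16730 in Ctrl. In LIP libraries the means of these genes were 24360 and 26250 of 63400. Per 1000 units of that neutrophil sum, the monocyte genes held 94.6, 76.8 and 83.4 units in Ctrl and 60.6, 57.9 and 61.3 units in LIP libraries. With Cd14 left out, the same ratio had values of 42.5, 38.5 and 39.1 for Ctrl against 23.3, 23.2 and 23.9 for LIP libraries, so the direction of the monocyte genes turned with the reference chosen.

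Further monocyte genes, from a list of 17, gave a mixed picture. Of 15 tested, 9 rose and 2 fell, beside 26.5% and 27.2% of all genes, with a median log2 fold change of 0.79. Ccr2, the chemokine receptor by which classical monocytes leave the marrow, rose by 1.72 (log2; adjusted p = 3.64e-06) and the pore-forming protein Mpeg1 by 1.64 (adjusted p = 7.46e-06). The 2 that fell were Ly86, which encodes MD-1 and is shared with B cells, at −0.97 (adjusted p = 6.87e-05), and Pou2f2, the B cell and monocyte factor Oct-2, at −0.44 (adjusted p = 0.0455). The call of Pou2f2 was lost in 5 of 6 fits without 1 library, all but that without LIP replicate 3, with adjusted p-values of 0.0653 to 0.168. Of the complement genes of tissue macrophages, C1qa and C1qc were below the filter and C1qb did not pass the test (log2 fold change 0.61, adjusted p = 0.537).

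**Figure D3:**
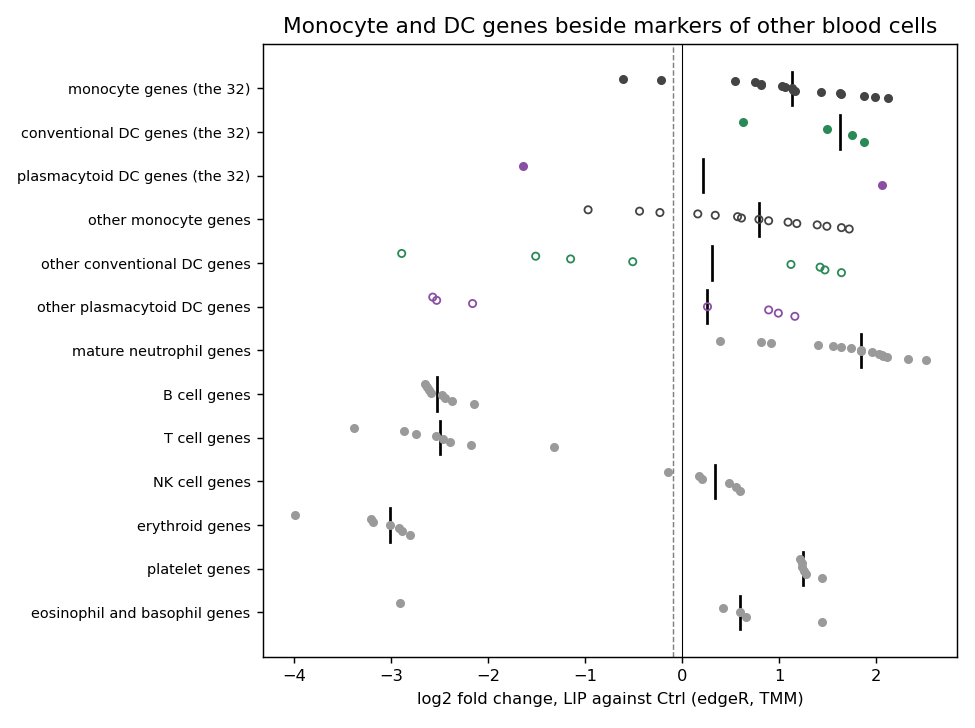
Log2 fold changes on the TMM scale for the genes tested in each list, 1 point per gene, with a black bar at the list's median. The dashed line marks the median of all genes tested. Filled coloured points are the 32 genes by list, open points further genes of the same cell types, and grey points markers of other blood cells: the monocyte genes (median 1.13) lie between all genes and the mature neutrophil genes (1.84), while B cell (−2.53), T cell (−2.50) and erythroid (−3.01) genes lie far to the left.

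Conventional DC genes were scarce apart from Id2. Id2, which blocks E proteins and is needed for conventional DC but is also made by many other leukocytes, was at 112, 139 and 115 in Ctrl and at 187, 204 and 180 in LIP libraries. It rose by 0.63 (log2; SE 0.109, adjusted p = 0.000733). Cd209a, a C-type lectin of DC and monocyte-derived cells, was at 3.20, 5.41 and 2.54 in Ctrl and at 9.03, 12.9 and 9.82 in LIP libraries. The groups were apart, and the log2 fold change was 1.49 (SE 0.323, adjusted p = 0.00298). The lectin Clec10a rose by 1.87 (log2; SE 0.466, adjusted p = 0.0065), from 0.238, 0.604 and 0.754 to 2.24, 1.59 and 2.14. Clec10a is uncertain by 9.02% of 50-base stretches that recur in other transcripts.

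Batf3, a factor of cross-presenting DC, rested on single libraries. It was at 0.563, 1.13 and 0.286 in Ctrl and at 4.06, 1.54 and 1.18 in LIP libraries, and LIP replicate 1 was the highest library. Its log2 fold change of 1.75 (SE 0.62, adjusted p = 0.035) dropped to 1.02 without LIP replicate 1, with an adjusted p of 0.155. The call was also lost without Ctrl replicate 1 (adjusted p = 0.0992) and without Ctrl replicate 3 (adjusted p = 0.116).

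The other 5 conventional DC genes were below the filter. Flt3 came nearest to it, with 185, 358 and 136 reads in Ctrl and 508, 342 and 537 in LIP libraries, a log2 fold change of 1.34 with no filter (adjusted p = 0.0737) that was called under the filter of edgeR's filterByExpr (adjusted p = 0.0404). Itgae, the integrin chain CD103, held 166 to 424 reads in Ctrl and 100 to 195 in LIP libraries, with a log2 fold change of −0.77 (adjusted p = 0.328), and it overlaps Haspin on the opposite strand. Xcr1, the chemokine receptor of cross-presenting DC, held 50 to 128 reads in Ctrl and 51 to 119 in LIP libraries. Zbtb46, the factor that separates conventional DC from other myeloid cells, held 22 to 77 reads in Ctrl and 19 to 83 in LIP libraries. Clec9a, a receptor for dead cells, had 13 to 46 reads in Ctrl and 3, 108 and 21 in LIP libraries, and it overlaps Clec1b, a platelet gene on the same strand. With no filter, the log2 fold changes of Xcr1 (0.01), Zbtb46 (0.30) and Clec9a (1.13) had adjusted p-values of 0.991, 0.866 and 0.581. At these reads no difference could be detected in these 3 genes, and their SE of 0.669, 0.943 and 1.32 leaves room for large changes.

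Of the 4 conventional DC genes tested, Cd209a and Id2 rose on the TMM scale without help from the filter, and Clec10a and Batf3 had entered the test through their LIP libraries. On the neutrophil gene scale 0 of the 4 rose and 1 fell, where 88.6% of all genes fell. The sum over the 9 genes, 117.8 to 148.2 in Ctrl and 196.3 to 222.5 in LIP libraries, was nearly all Id2, and without Id2 it was 5.903 to 9.144 and 15.94 to 18.33. Set against the monocyte genes in the same library, conventional DC genes without Id2 held 9.62, 12.9 and 8.91 units per 1000 units of monocyte genes without Cd14 in Ctrl, and 12.6, 11.8 and 11.0 units in LIP libraries. These values overlapped between groups. With Id2 and Cd14 included, the ratio was 84.3, 105 and 85.4 in Ctrl and 54.2, 57.3 and 52.9 in LIP libraries.

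Further conventional DC genes did not move as one. From a list of 14, 8 could be tested, of which 4 rose and 2 fell, with a median of 0.31. Of all genes tested, 26.5% rose and 27.2% fell. The largest change was in Ccr7, the receptor that leads DC and lymphocytes to lymph nodes, which fell, with a log2 fold change of −2.89 (adjusted p = 2.04e-07). Ccr7 is also carried by T and B cells, and all 16 genes of those lists fell. Tbc1d4, a regulator of vesicle traffic, rose by 1.64 (adjusted p = 0.000265) and Ppt1, a lysosomal thioesterase, by 1.47 (adjusted p = 4.78e-06). Irf8, needed for conventional and plasmacytoid DC and also made by B cells, was the other gene that fell, at −1.15 (adjusted p = 1.07e-05), and it is named after its values had been seen.

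The plasmacytoid DC genes split into 1 that rose, 1 that fell and 2 below the filter. Of all genes tested, 26.5% were called higher and 27.2% lower. The sum over the 4, nearly all Bst1 when measured per length, was 33.1 to 42.8 in Ctrl and 126.2 to 143.5 in LIP libraries. In reads, Bst1 held 6203, 8236 and 5975 in Ctrl libraries. Tcf4, with a counted length of 29710 bases, held 6327, 5741 and 6163 there. On the neutrophil gene scale 0 of the 2 genes tested were called higher and 1 lower, as against 0.469% and 88.6% of all genes. Bst1 (CD157), an ectoenzyme that stromal cells and neutrophils also carry, was at 28.7, 38.2 and 28.4 in Ctrl and at 142, 134 and 124 in LIP libraries. It rose by 2.06 (log2; SE 0.135, adjusted p = 9.68e-07), second only to Tgfbi among the 23 genes tested. Tcf4, the E protein that sets plasmacytoid DC identity, was at 3.54, 3.22 and 3.55 in Ctrl and at 1.09, 1.20 and 1.05 in LIP libraries. It fell by 1.64 on the log2 scale (SE 0.124, adjusted p = 2.38e-06). The fall held under every scaling tried, but the other scalings could hardly undo a fall. They moved the median of all genes by −0.32 (library totals), −1.85 (neutrophil genes) and 0.04 (median-of-ratios factors). Within a library the ratio of Bst1 to Tcf4 was 8.10, 11.9 and 8.02 in Ctrl and 131, 111 and 118 in LIP libraries.

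Each of these genes can be set beside a marker of another cell type that makes it, a choice made after the values had been seen. Bst1 per 1000 units of Cxcr2, the chemokine receptor of mature neutrophils, was 206, 272 and 193 in Ctrl and 241, 215 and 210 in LIP libraries, so the groups overlapped. Tcf4 per 1000 units of Cd79a, a chain of the B cell receptor, was 3.60, 2.84 and 3.53 in Ctrl and 7.19, 6.61 and 5.96 in LIP libraries, so Tcf4 fell by less than Cd79a. All 8 B cell genes fell, beside 27.2% of all genes tested, with a median of −2.53, and none was at 0. Their summed level went from 2899 to 3256 in Ctrl to 546.1 to 619.4 in LIP libraries. The part of B cell RNA in Tcf4 was not tested.

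Siglech and Ccr9 were below the filter, and neither gave a call. Siglech, a lectin receptor of plasmacytoid DC, held 75, 192 and 126 reads in Ctrl and 0, 217 and 112 in LIP libraries. Ccr9, a chemokine receptor for homing to the gut, held 574, 358 and 346 reads in Ctrl and 0, 92 and 235 in LIP libraries. LIP replicate 1 had 0 reads of both, as it had of Mrc1. With no filter their log2 fold changes were 0.04 (SE 1.34, adjusted p = 0.985) and −1.62 (SE 1.23, adjusted p = 0.386). Ccr9 lay lower in every LIP library than in any Ctrl library, and it overlaps Gm10052 on the opposite strand. The part of T cell RNA in Ccr9 was not tested.

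Further plasmacytoid DC genes moved both ways. Of 7 tested from a list of 12, 4 rose and 3 fell, beside 26.5% and 27.2% of all genes. Their median log2 fold change was 0.26. The 3 that fell were the surface protein Ly6d (−2.57, adjusted p = 8.5e-08) and the factors Spib (−2.53, adjusted p = 1.5e-06) and Bcl11a (−2.16, adjusted p = 1.25e-05), which B cells also make. Bcl11a had a LIP mean of 0.506 and passed the filter through its Ctrl libraries. It could enter the test only by being lower in LIP libraries. Below the filter, Pacsin1 had 747, 668 and 496 reads in Ctrl and 30, 31 and 101 in LIP libraries, with a log2 fold change of −3.23 and no filter (adjusted p = 0.00555). The 4 that rose, Runx2, Tlr7, Lair1 and Pld4, had log2 fold changes of 1.16, 0.99, 0.89 and 0.26 and, like Pacsin1, are named after their values had been seen. The call of Pld4 was lost in 5 of 6 fits without 1 library (every one but that without Ctrl replicate 2) and its value was −0.06 with library totals.

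**Figure D4:**
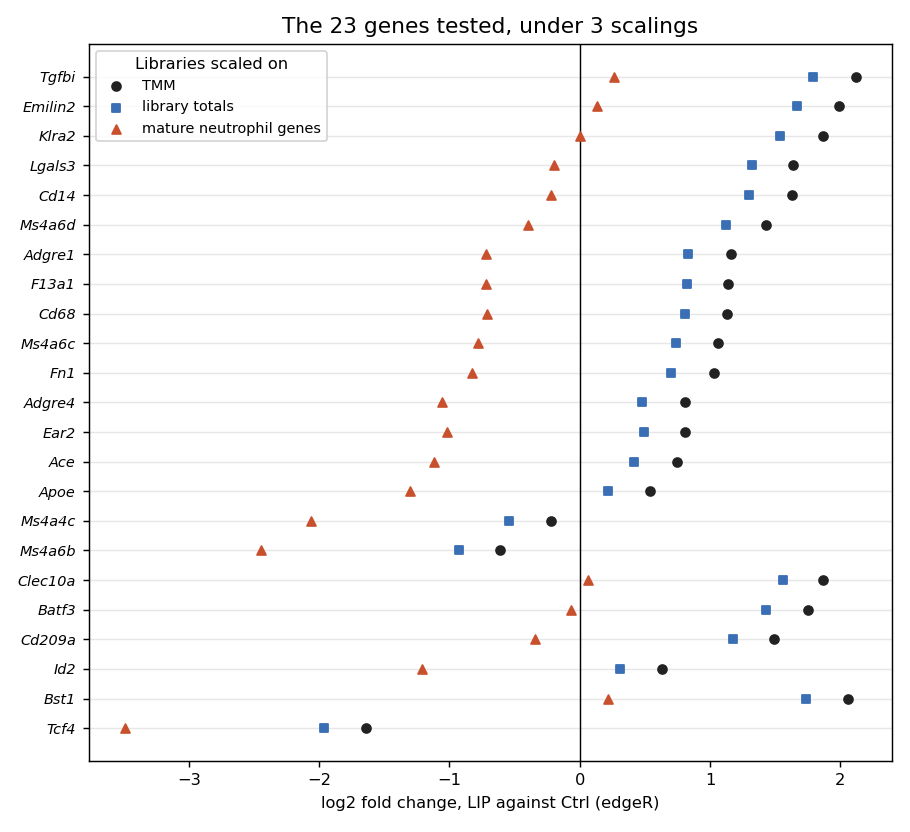
Log2 fold change of the 23 genes tested when libraries are scaled by TMM (circles), by library totals (squares) or on the mature neutrophil genes (triangles). On the neutrophil scale the whole set moves left together with the median of all genes (from −0.10 to −1.94). Tgfbi (0.26) and Bst1 (0.22) then lie to the right of 0, and Tcf4, Ms4a6b and Ms4a4c lie farthest to the left.

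The scale decided how many of the genes counted as higher. A change of scale shifts every gene and the median of all genes by nearly the same amount. That 20 of the 23 lay above this median on each scale shown was therefore fixed once it held on 1 scale. Scaled on mature neutrophil genes, that median was −1.94 (log2), 5 of the 23 genes lay above 0 and 20 above the median. With library totals as the scale the median of all genes was −0.42, 15 of the 23 genes were called higher and 3 lower, as against 18.4% and 39.7% of all genes, and again 20 lay above the median. The 3 genes below the median under each of these scales were Tcf4, Ms4a6b and Ms4a4c. Library totals take in the red cell transcripts, whose 7 genes all fell on the TMM scale, beside 27.2% of all genes. They fell to a sum of 21570 to 22700 in LIP libraries.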

How the data were processed

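Counts and FPKM of 6 Smart-seq2 libraries (3 Ctrl, 3 LIP) of sorted PB neutrophils were analysed, and groups were taken from the sample labels. The values deposited by the authors are read counts on each gene, not normalized, and FPKM, the same reads scaled by gene length and library total. Per the submitters' processing notes, cutadapt 1.9, FastQC and GRCm38 were used, and the aligner, the counter and the use of strand are not given in the sources used here. Where a name stood on several rows (50 names), the most abundant row was kept. edgeR was run on genes whose FPKM averaged 1 or more (version 4.0.16, quasi-likelihood test, TMM, R 4.3.3), with p-values adjusted over all 10440 genes. SE is the absolute log2 fold change over the root of F. Levels are deposited FPKM over the TMM factor. The test was tried on simulated counts.

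Total counts were 52186555 to 57262379, and no 2 libraries of a group were within sampling noise (chi-square per gene 51.9 to 126). Smart-seq2 has no molecular identifiers, so floors of 3 reads cover counting error only. P-values measure the spread between pools of 5 mice.

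The 32 members, the lists and the motifs were chosen with earlier results of these data known. All members are named. Library values are given for the 4 most abundant and 4 most changed of a list and for all plasmacytoid DC genes, and Fn1, F13a1 and the like by range. Of each further list the 3 most changed called genes are named. 1 result for a single gene under this rule is not reported here. Library values for Ms4a6b, Ms4a6c and low genes, Ly86, Pou2f2, C1qa, C1qb, C1qc, S100a9 and Ly6g were added after values were seen. Epx, of the eosinophil and basophil list, was not analysed here.

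The alternatives were library totals, median-of-ratios factors, neutrophil gene scaling, DESeq2 1.42.0, limma 3.58.1 on log2(FPKM + 1) and on log2(FPKM + 0.1), filterByExpr, no filter, a replicate block and leaving out each library. Sums without Cd14 or Id2 and ratios within a library were added after seeing the data.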

Additional observations from a re-analysis of the deposited data

How the results depend on the processing

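Median-of-ratios factors, DESeq2 and the replicate block kept the call of all 23 genes tested. The replicate block gave 15 monocyte genes higher and, over all genes, 2724 higher and 2822 lower. Libraries of 1 number correlated by 0.021, 0.056 and 0.036 in their deviations, and libraries of different numbers by −0.05 to 0.022. With 3 libraries per group, values this small cannot decide whether the numbers pair the samples. Scaled on mature neutrophil genes, log2 fold changes turned to −0.22 for Cd14, −0.72 for F13a1, −0.83 for Fn1, −0.78 for Ms4a6c, −0.40 for Ms4a6d, −0.20 for Lgals3, −0.71 for Cd68, −1.02 for Ear2, −1.12 for Ace, −1.30 for Apoe, −0.72 for Adgre1, −1.06 for Adgre4, −0.34 for Cd209a, −0.07 for Batf3 and −1.21 for Id2. On that scale 0 monocyte genes were higher and 12 lower, 0 conventional DC genes higher and 1 lower, and 0 plasmacytoid DC genes higher and 1 lower. These counts stood beside 49 higher and 9253 lower of all 10440 genes, which follows from a reference that itself rose. Library totals and limma with either pseudocount gave 2 monocyte genes lower, the added one being Ms4a4c. The limma fits used the deposited FPKM, which are scaled by library totals and carry no TMM factor, so they share that scale. With library totals Ear2, Ace, Apoe, Adgre4 and Batf3 lost their call and Ms4a4c gained one (−0.54, adjusted p = 0.00463). Batf3 also lost its call with filterByExpr (adjusted p = 0.0872) and with no filter (adjusted p = 0.164). The log2 ratio of the summed plasmacytoid DC genes dropped to 1.18 when CPM, in which long genes weigh more, was summed in place of FPKM. Ace, Adgre4 and Batf3 also lost their call in limma with either pseudocount, and Ear2 with 0.1. Leaving out 1 library moved calls among the 23 genes in Ear2 and Batf3 only, and the called genes of the further lists numbered 10 to 11 (monocyte), 6 to 8 (conventional DC) and 6 to 7 (plasmacytoid DC). Few reads limit Mrc1, Zbtb46, Clec9a, Siglech and Ccr9.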
